A study of Mus musculus with 24 samples.

Results

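A pair of antibodies against lamin A/C, N18 and 3A6, were compared on chromatin of wild-type fibroblasts that had been fixed and sonicated for 30 cycles. The comparison uses 2 of the 24 samples of the series, and its members are the 281 domains of the N18 library and the 363 domains of the 3A6 library, 644 of the 3486 domains in the 12 libraries analysed. Members were chosen by their labels, and every stretch of the genome was then placed in 1 of 4 classes: inside N18 domains only, inside domains of both antibodies, inside 3A6 domains only, or inside neither. The cells were immortalized dermal fibroblasts of the mouse with the genotype Lap2alpha +/+ (WT), and they received no treatment. Whether a cell line is a single clone is not given in the sources used here. N18 (Santa Cruz) is directed against the N terminus of lamin A/C and 3A6-4C11 (Active Motif) against its C-terminal Ig fold. Reference libraries were lamin B1 and LAP2alpha of WT cells at 30 and 12 cycles, N18 and 3A6 of Lap2alpha -/- (KO) cells at 30 and 12 cycles, and N18 and 3A6 of WT cells at 12 cycles. Each group held 1 library, so no difference below has a replicate spread and none could be tested. Values are lengths, shares and counts of these libraries, and where a range is given it runs over chromosomes, which are not replicates. The region lists hold no RNA, so neither the fibroblast identity nor the deletion could be checked in them.

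Lamins are intermediate filament proteins that line the inner nuclear membrane. B-type lamins stay at the membrane, whereas part of the A-type lamins is found in the nuclear interior, where LAP2alpha, a product of the Tmpo gene without a membrane anchor, binds them. Chromatin that touches the lamina forms long, gene-poor, AT-rich domains (LADs), and large clusters of sensory receptor genes are typical residents of them.

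Sequences from each class are shown first, because the classes differed in base composition. They are gene promoters from RefSeq (build GRCm38.p6), from 250 bases before to 50 bases after the gene start, each found by an exact match in the mm9 genome and printed in the direction of the gene. Capitals mark the dinucleotide CG, searched on the strand shown, which reads the same on the other strand. The 3 contactins, neuronal adhesion molecules of the immunoglobulin superfamily, fall in 3 different classes. Alongside them stand a keratin, a cytochrome P450 and an olfactory receptor. Their families have a larger share in the class shown than all genes have. The 6 genes were picked for display after their classes were known.
Cntn2 (N18 only, chr1:134439468-134439767, minus strand): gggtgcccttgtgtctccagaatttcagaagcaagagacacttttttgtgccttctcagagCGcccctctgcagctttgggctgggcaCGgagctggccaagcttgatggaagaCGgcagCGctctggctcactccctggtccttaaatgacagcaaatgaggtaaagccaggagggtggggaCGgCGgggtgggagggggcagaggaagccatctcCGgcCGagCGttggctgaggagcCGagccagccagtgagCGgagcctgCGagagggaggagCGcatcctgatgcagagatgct
Krt79 (N18 only, chr15:101770706-101771005, minus strand): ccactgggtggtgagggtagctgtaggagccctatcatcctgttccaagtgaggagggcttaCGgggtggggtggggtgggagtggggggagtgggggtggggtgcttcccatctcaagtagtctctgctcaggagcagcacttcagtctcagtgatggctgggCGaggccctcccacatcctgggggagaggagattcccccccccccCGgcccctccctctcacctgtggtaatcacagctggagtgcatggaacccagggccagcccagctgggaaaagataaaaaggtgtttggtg
Cntn3 (both, chr6:102414612-102414911, minus strand): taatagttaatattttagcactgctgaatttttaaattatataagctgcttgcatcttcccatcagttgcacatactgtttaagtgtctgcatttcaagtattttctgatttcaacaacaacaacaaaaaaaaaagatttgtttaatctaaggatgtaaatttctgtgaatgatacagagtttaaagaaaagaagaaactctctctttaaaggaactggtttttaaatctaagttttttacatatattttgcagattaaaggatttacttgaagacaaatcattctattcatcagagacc
Cyp3a59 (both, chr5:146890584-146890883, plus strand): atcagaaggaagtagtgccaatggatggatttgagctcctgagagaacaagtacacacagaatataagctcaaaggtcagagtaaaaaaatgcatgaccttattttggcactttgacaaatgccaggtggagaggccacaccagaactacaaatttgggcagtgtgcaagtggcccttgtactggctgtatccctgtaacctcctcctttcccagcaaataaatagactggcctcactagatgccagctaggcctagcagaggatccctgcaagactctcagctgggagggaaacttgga
Cntn5 (3A6 only, chr9:10904726-10905025, minus strand): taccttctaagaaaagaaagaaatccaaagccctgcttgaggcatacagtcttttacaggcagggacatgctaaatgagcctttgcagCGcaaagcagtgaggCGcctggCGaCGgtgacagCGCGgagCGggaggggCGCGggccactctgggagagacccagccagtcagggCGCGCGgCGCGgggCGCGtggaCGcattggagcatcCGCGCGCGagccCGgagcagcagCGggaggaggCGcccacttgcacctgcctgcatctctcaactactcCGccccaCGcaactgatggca
Olfr27 (3A6 only, chr9:38935502-38935801, plus strand): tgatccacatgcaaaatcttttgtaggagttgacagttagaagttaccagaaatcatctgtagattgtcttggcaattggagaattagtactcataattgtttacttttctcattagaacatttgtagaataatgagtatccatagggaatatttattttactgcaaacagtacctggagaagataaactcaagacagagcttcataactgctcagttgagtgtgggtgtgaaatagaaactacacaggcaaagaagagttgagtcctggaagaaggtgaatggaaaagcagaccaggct

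The CG count of these windows was 13 for Cntn2 and 3 for Krt79, 0 for Cntn3 and 0 for Cyp3a59, and 26 for Cntn5 and 0 for Olfr27. Single promoters therefore did not follow their class. Over all genes of a class the median count in the 300-base window, taken at the annotated gene start in mm9, was 6 in N18 only, 3 in both and 2 in 3A6 only, against 11.5 over all 22208 protein-coding genes. A count of 10 or more was reached by 40.2% of the promoters in N18 only, 24.1% in both and 15.0% in 3A6 only, against 54.1% of all promoters. Without olfactory and vomeronasal receptor genes, a choice made after seeing the data, these shares were 42.7% in N18 only, 29.4% in both and 28.5% in 3A6 only, against 57.7% of all other genes, so that the gap between both and 3A6 only was nearly gone. The medians were then 7, 4 and 4 in the same classes, against 13.

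The N18 antibody called less than 3A6 under the domain caller EDD, which finds broad enriched domains in bins of 11 kb. N18 domains summed to 238.557 Mb, or 9.33% of the genome without gaps, and 3A6 domains summed to 581.988 Mb, or 22.8%. The median domain was 693 kb for N18 (range 110 to 4015 kb) and 1056 kb for 3A6 (range 264 to 14575 kb). The islands of SICER, a caller of shorter enriched intervals, did not show this gap in length. N18 had 6627 islands over 243.169 Mb holding 9600190 reads, and 3A6 had 6853 islands over 213.345 Mb holding 8187172 reads. The read density inside islands was 39.5 reads per kb for N18 and 38.4 reads per kb for 3A6. The pair was sequenced in the same lane of 1 flow cell, and by the labels it shared 1 input with the lamin B1 and LAP2alpha libraries of WT cells at 30 cycles.

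N18 domains covered a small part of what 3A6 domains covered. The N18 only class held 135.311 Mb, both held 103.246 Mb and 3A6 only held 478.742 Mb. Thus 43.3% of the N18 domain length lay inside 3A6 domains, which covered 22.8% of the genome without gaps. Conversely, 17.7% of the 3A6 domain length lay inside N18 domains, which covered 9.33% of that genome. Of the 281 N18 domains, 146 (98.142 Mb) touched no 3A6 domain and 37 lay wholly inside one. Of the 363 3A6 domains, 231 (356.356 Mb) touched no N18 domain and 44 lay wholly inside one. With islands in place of domains the classes held 155.146 Mb in N18 only, 88.023 Mb in both and 125.322 Mb in 3A6 only. Here 36.2% of the N18 island length and 41.3% of the 3A6 island length was shared. N18 islands covered 9.51% of the genome without gaps and 3A6 islands 8.35%. In an alternative, all N18 domains were kept and 3A6 domains were trimmed by falling score to the N18 total length. Then 9.34% of either set was shared. A set of that length covers 9.33% of the genome without gaps.

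**Figure D1:**
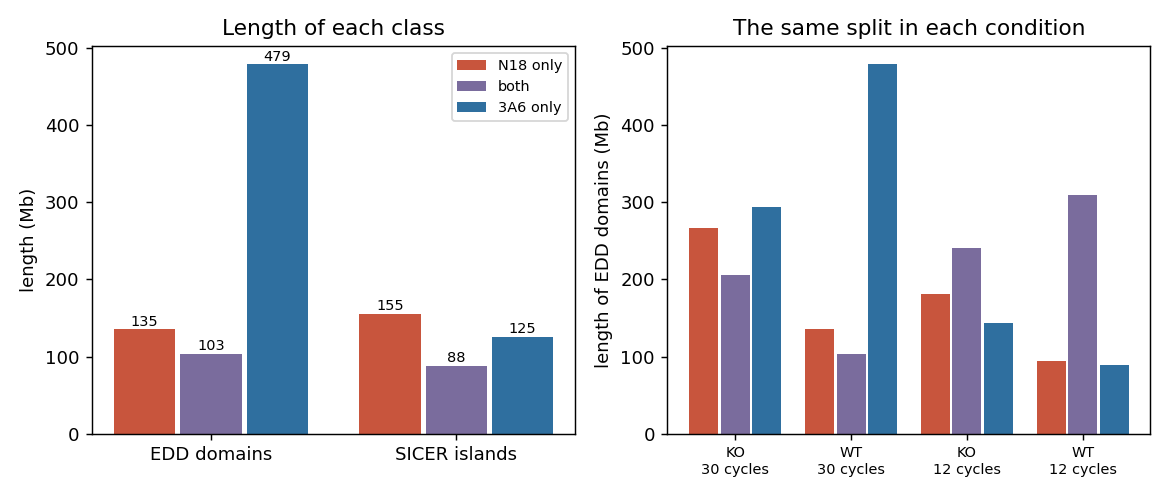
Length in Mb of the stretches held by N18 only, by both antibodies and by 3A6 only (bars), for EDD domains and SICER islands of WT cells at 30 cycles (left) and for EDD domains in each genotype and sonication (right), 1 library per antibody and condition. The 3A6 only bar of 479 Mb stands out for domains but not for islands, and the shared class is the tallest at 12 cycles.

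The share held in common differed between conditions. In KO cells at 30 cycles, 43.6% of the N18 domain length was inside 3A6 domains and 41.2% of the 3A6 domain length was inside N18 domains. In WT cells at 12 cycles these shares were 76.5% and 77.5%, and in KO cells at 12 cycles 57.0% and 62.6%. The low share of 3A6 length at WT and 30 cycles went with a short N18 total: N18 domains summed to 471.966 Mb in KO cells and 238.557 Mb in WT cells at 30 cycles, and 3A6 domains to 499.642 Mb in KO cells and 581.988 Mb in WT cells. Lamin A/C libraries of 30 and of 12 cycles came from separate flow cells, and the effects of the cycle number and of the flow cell cannot be told apart here.

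Within the union of the domains, stretches of the shared class stood between the other classes. Of the 138 shared stretches, 57 (41.3%) had an N18 only stretch on 1 side and a 3A6 only stretch on the other, 38 had N18 only on both sides and 24 had 3A6 only on both sides. No N18 only stretch bordered a 3A6 only stretch directly, which would need 1 domain to end exactly where the other begins. Most of the unshared length was nevertheless not next to a shared stretch, since 146 of the 282 N18 only stretches (72.5% of the class length) and 231 of the 343 3A6 only stretches (74.4%) had no domain of the other antibody beside them. The median stretch was 390.5 kb in N18 only, 643.5 kb in both and 858 kb in 3A6 only, and the longest were 2.662, 2.761 and 14.575 Mb, in that class order.

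Lamin B1, which marks chromatin at the nuclear membrane, covered the 3A6 only class almost wholly and the N18 only class in part. Lamin B1 domains of WT cells at 30 cycles held 41.9% of N18 only, 89.9% of both and 96.0% of 3A6 only. They held 18.7% of the class held by neither, from which all 3A6 domains are left out, and 37.3% of the genome. The share in N18 only was thus near that of the genome at 30 cycles. The difference between N18 only and 3A6 only was -54.11 percentage points. On each of the 17 chromosomes with at least 1 Mb of both classes the lamin B1 share was lower in N18 only than in 3A6 only, by 22.8 to 89.1 percentage points. Against lamin B1 at 12 cycles the shares were 30.1% of N18 only, 59.9% of both and 49.7% of 3A6 only. These 12-cycle domains held 5.70% of the class held by neither and 17.4% of the genome, so that N18 only lay above the genome. Among whole domains, 92 of the 146 N18 domains that touched no 3A6 domain had no lamin B1 domain in them, whereas 151 of the 231 3A6 domains that touched no N18 domain lay wholly inside lamin B1 domains.

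LAP2alpha had the opposite order, with more of N18 only in its domains than of 3A6 only. At 30 cycles LAP2alpha domains held 56.1% of N18 only, 54.9% of both and 16.5% of 3A6 only, against 23.6% of the class held by neither. At 12 cycles they held 73.7% of N18 only, 36.7% of both and 1.36% of 3A6 only. The LAP2alpha domains at 30 cycles were spread unevenly over chromosomes. They held 67.0% of chromosome 1, 62.9% of chromosome 7 and 77.2% of chromosome 12. They held 0.252% of chromosome 15 and 0% of chromosomes 3, 8, 13, 19 and X. The share was higher in N18 only on 12 of the 17 chromosomes and lower on 0, with the remaining chromosomes at 0% in both classes. On the 10 chromosomes where islands of each antibody covered at least 1%, a restriction chosen after seeing the data, LAP2alpha at 30 cycles held 19.1% of N18 only and 3.58% of 3A6 only. The part of this chromosome pattern in the result was not tested.

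Lamin B1 and LAP2alpha domains divided the N18 only class into 4 portions, whereas 1 portion held most of the 3A6 only class. Of N18 only, 46.717 Mb was held by LAP2alpha alone, 29.15 Mb by lamin B1 and LAP2alpha, 27.489 Mb by lamin B1 alone and 31.955 Mb by neither of them. Of 3A6 only, 385.231 Mb (80.5%) was held by lamin B1 alone. The gene density of the N18 only portions was 10.2 genes per Mb with LAP2alpha alone, 4.36 with both proteins, 4.51 with lamin B1 alone and 7.14 with neither.

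**Figure D2:**
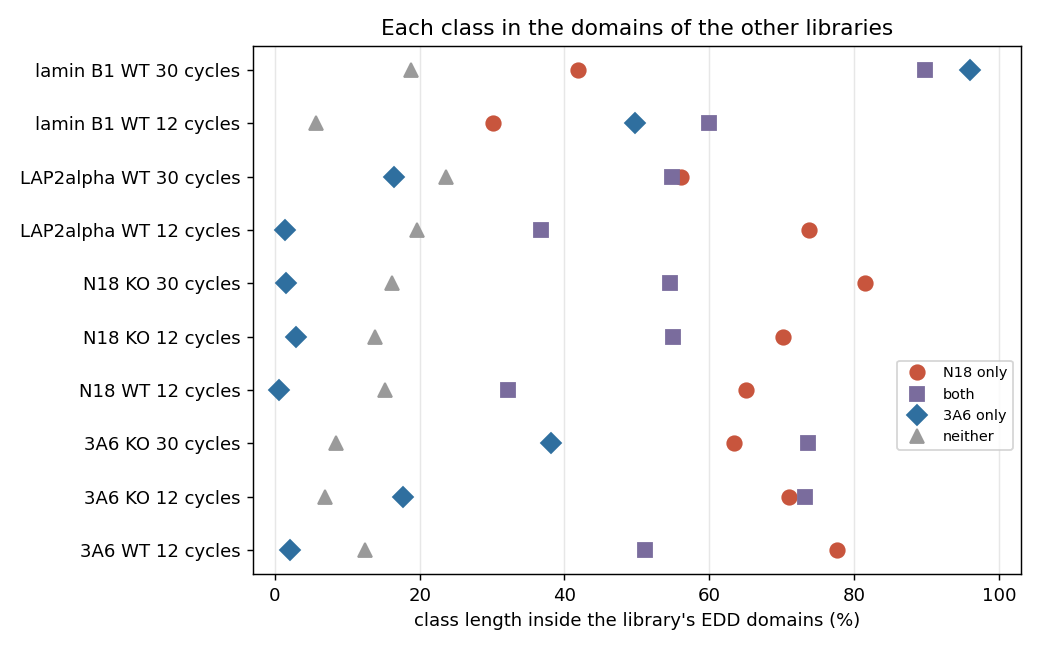
Share of each class (N18 only, both, 3A6 only and neither, all defined in WT cells at 30 cycles) that lies inside the EDD domains of 10 other libraries, in % of the class length. The 3A6 only class sits above 90% for lamin B1 at 30 cycles and below 3% for the N18 libraries and for LAP2alpha and 3A6 of WT cells at 12 cycles, whereas N18 only is above 60% for every lamin A/C library plotted.

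Most of the N18 only length lay inside 3A6 domains in other conditions, although 3A6 did not call it in WT cells at 30 cycles. The 3A6 domains held 63.5% of N18 only in KO cells at 30 cycles, 71.0% in KO cells at 12 cycles and 77.7% in WT cells at 12 cycles. The same libraries held 38.2%, 17.7% and 2.07% of 3A6 only, in that order. In the other direction, N18 domains held little of 3A6 only in any library: 1.54% in KO cells at 30 cycles, 2.86% in KO cells at 12 cycles and 0.565% in WT cells at 12 cycles. Of the 3A6 only length, 97.9% was in neither antibody's domains in WT cells at 12 cycles. In KO cells at 30 cycles, 36.8% of it was again 3A6 only and 61.6% was in neither. These libraries used other inputs than the pair compared here, and at 12 cycles another flow cell.

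The borders of the shared stretches show how the signals of the other libraries lay around them. In the last 100 kb before a border from N18 only into a shared stretch, lamin B1 domains held 47.0% of the length, and in the first 100 kb beyond it they held 81.5% (139 borders). The N18 only stretch itself filled 77.5% of the step before this border, whereas the shared stretch filled 100% of the step after it. Across the 118 borders from a shared stretch into 3A6 only, the lamin B1 share was 88.9% before the border and 72.7% after it, where the 3A6 only stretch itself filled 82.2% of the step. 3A6 domains of WT cells at 12 cycles had smaller steps, with 60.9% before and 67.5% after the border out of N18 only, and 22.6% before and 14.7% after the border into 3A6 only. The G+C content declined slowly over the same steps, at 44.2% before and 43.2% after the border out of N18 only, and at 40.2% before and 40.0% after the border into 3A6 only.

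**Figure D3:**
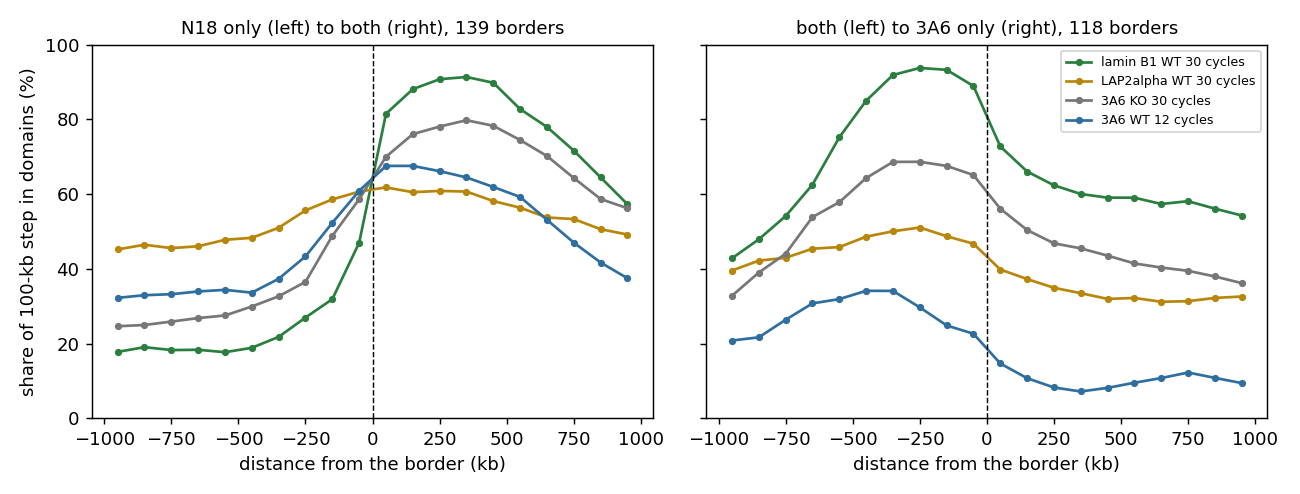
Share of each 100-kb step (%) inside the EDD domains of 4 other libraries, against distance in kb from the border between N18 only and both (left, 139 borders) and between both and 3A6 only (right, 118 borders). Lamin B1 steps up at the N18 only border, at 47.0% before and 81.5% after, while LAP2alpha at 30 cycles stays between 45.2% and 61.8% over the same panel. N18 domains fill 77.5% of the step before that border and 100% of the step after it.

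The classes differed in base composition and in genes. The G+C content was 45.1% in N18 only, 41.6% in both and 38.0% in 3A6 only, against 41.8% in the genome, and it was higher in N18 only than in 3A6 only on 17 of 17 chromosomes. A gene was assigned to a class when at least 50% of its length lay in it. N18 only held 960 of the 22208 protein-coding genes (4.32%), both held 345 (1.55%) and 3A6 only held 1738 (7.83%). Per Mb, this was 7.09 genes in N18 only, 3.34 in both and 3.63 in 3A6 only, against 8.68 in the genome. Olfactory and vomeronasal receptor genes made up 47.6% of the genes in 3A6 only, 18.3% in both and 5.83% in N18 only. Counting the other genes, a choice made after seeing the data, N18 only held 6.68 genes per Mb, both held 2.73 and 3A6 only held 1.90. On single chromosomes the density of all genes was higher in N18 only on 13 and lower on 4 of 17.

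The classes were spread unevenly over chromosomes. On chromosome X, N18 domains summed to 2.662 Mb and 3A6 domains to 75.031 Mb, 46.2% of the chromosome, with 0.759 Mb shared. Chromosome 13 went the other way, with 11.099 Mb of N18 domains, 0.638 Mb of 3A6 domains and no shared length. Chromosome 10 had 1.496 Mb of N18 domains and 13.915 Mb of 3A6 domains. Elsewhere the share of N18 length inside 3A6 domains ran up to 69.8% on chromosome 17 and to 100% on chromosome 19, where the N18 domains summed to only 0.726 Mb. Islands were nearly missing on some chromosomes in each library: on chromosome 1 they covered 0.107% for N18 and 0.0851% for 3A6, and on chromosome 8 they covered 37.2% for N18 and 28.6% for 3A6. Island results therefore rest on the chromosomes that hold islands.

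**Figure D4:**
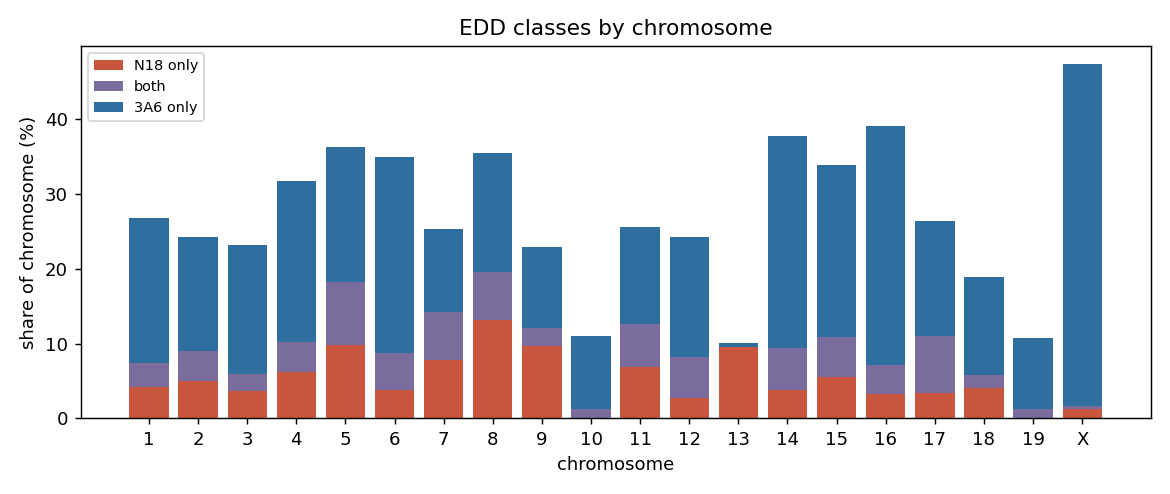
Share of each mouse chromosome (%) in N18 only, both and 3A6 only domains (stacked bars, WT cells, 30 cycles, 1 library per antibody). The X chromosome has the tallest bar, with 45.8% in 3A6 only, and chromosome 13 is the chromosome with almost no 3A6 only length.

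The longest N18 only stretch ran over 2.662 Mb (chr5:26400001-29062000) with 17 genes, among them Dpp6, an auxiliary subunit of neuronal potassium channels, and Rbm33, an RNA-binding protein. Outside the naming rule and chosen after its values were seen, the morphogen gene Shh lies in the same stretch. LAP2alpha domains and lamin B1 domains each held 100% of the stretch. The second, 2.53 Mb (chr13:68211001-70741000), held Adcy2, an adenylyl cyclase, and Nsun2, an RNA methyltransferase. At 30 cycles lamin B1 held 82.2% of this stretch. LAP2alpha held 0% of it at 30 cycles, and also 0% of the whole of chromosome 13. At 12 cycles LAP2alpha held 100% of the stretch. Cdh13, a cadherin without a cytoplasmic tail, filled much of a stretch of 1.936 Mb on chromosome 8, and Clstn2, a calsyntenin of synapses, lay in 1 of 1.859 Mb on chromosome 9. The gene bodies of Dpp6, Cdh13 and Clstn2 were covered to 100% by N18 and to 0% by 3A6 in WT cells at 30 cycles, and to 100% by 3A6 in KO cells at 30 cycles and in WT cells at 12 cycles.

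The longest shared stretch, 2.761 Mb (chr5:126126001-128887000), held 3 of the 5 Tmem132 genes, which encode single-pass membrane proteins. Tmem132c was covered to 100% by N18, by 3A6, by LAP2alpha, by lamin B1 and by both antibodies in the other conditions. Of the length of Tmem132d, 7.69% was N18 only and 92.3% was shared. Atp8a2, a phospholipid flippase, lay in a stretch of 2.123 Mb on chromosome 14 that LAP2alpha held to 100% and lamin B1 to 0%. Nrxn3, a presynaptic neurexin of 1612 kb, was covered to 89.9% by N18 and to 100% by 3A6. A further 1.694 Mb on chromosome 5 was shared and held 0 genes.

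The longest 3A6 only stretch, on chromosome X (chrX:103433001-118008000), ran over 14.575 Mb with 40 genes, including Pcdh11x, a protocadherin, and Zfp711, a zinc finger protein. At 30 cycles lamin B1 held 100% of this stretch. LAP2alpha held 0% of it, and also 0% of the whole of chromosome X. The longest autosomal one, 10.45 Mb on chromosome 4 (chr4:69894001-80344000), held Ptprd, a receptor-type tyrosine phosphatase, and Cdk5rap2, a centrosome protein. In KO cells at 30 cycles N18 domains held 0% of it and 3A6 domains 86.3%. In WT cells at 12 cycles N18 domains held 0% and 3A6 domains 0%. Dmd, the dystrophin gene of 2257 kb, and Lrp1b, a lipoprotein receptor relative of 2058 kb, were covered to 100% by 3A6 and to 0% by N18.

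The counts of gene families are read against the shares of all protein-coding genes, which were 4.32% in N18 only, 1.55% in both and 7.83% in 3A6 only. These shares include the olfactory and vomeronasal receptors. Without them, a choice made after seeing the data, N18 only held 904, both held 282 and 3A6 only held 911 of 20799 genes. For the other families the share of all genes in 3A6 only is therefore a high background. Olfactory receptors, the odorant receptors of the nasal epithelium, were mainly in 3A6 only: 39 of 1087 lay in N18 only (3.6%), 62 in both (5.7%) and 728 in 3A6 only (67.0%), of which the N18 only share is near that of all genes. On chromosome 2 the count was 266 of 282 in 3A6 only and 0 in N18 only, whereas on chromosome 4 it was 4 of 24 in 3A6 only and 13 in N18 only. Vomeronasal receptors, which sense pheromones, were 17 in N18 only, 1 in both and 99 in 3A6 only of 322, and 16 of the 17 in N18 only formed a group on chromosome 13. Of 47 glutamate and GABA receptor genes, 3 lay in N18 only (6.38%, near the share of all genes), 3 in both and 18 in 3A6 only. The members of N18 only were Grin2a, Gabbr2 and Grik3, which LAP2alpha covered to 100% at 30 cycles. Lamin B1 at 30 cycles also covered Grin2a to 100%, and the other members to 0%. The 3A6 only class held Grm8, Gabrg3, Grm5 and Gabrb1 among others. Of these named genes LAP2alpha at 30 cycles covered Gabrg3 to 77.1% and the others to 0%.

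Keratins and keratin-associated proteins are structural proteins of epidermis and hair, and 1 cluster of each family fell in a class. Of 46 keratin genes, 12 lay in N18 only and 0 in 3A6 only, and these 12 were among the 21 keratin genes on chromosome 15, while all 25 on chromosome 11 lay in no class. Krt79, Krt77 and Krt75 were covered to 100% by N18 and to 0% by 3A6, by lamin B1 and by LAP2alpha at 30 cycles. LAP2alpha domains at 30 cycles held only 0.252% of chromosome 15. At 12 cycles LAP2alpha of WT cells covered each of these genes to 100%. Of 46 keratin-associated genes, 0 lay in N18 only and 19 in 3A6 only, which are all 19 on chromosome 16. Beta-defensins, antimicrobial peptides, had 19 of 41 genes in N18 only, all on chromosome 8, and 2 in 3A6 only. Since neighbours in such a cluster share a domain, these counts stand for a few stretches and not for independent genes. Many members of the receptor, defensin and keratin-associated families have near-identical copies, among which short reads cannot always be placed, and the part of this in the counts was not tested.

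Of 27 sodium and calcium channel genes, 7 lay in N18 only, 1 in both and 0 in 3A6 only, against 4.32%, 1.55% and 7.83% of all genes, and 5 of the 7 are on chromosome 9. Scn10a, a sodium channel of sensory neurons, was covered to 100% by N18 and LAP2alpha and to 0% by lamin B1. Cytochrome P450 genes, which oxidise drugs and lipids, had 2 of 98 members in N18 only (2.04%), 16 in both (16.3%) and 12 in 3A6 only (12.2%). Against the same shares of all genes, the share in both differed most. The 8 shared ones on chromosome 5 include Cyp3a57 and Cyp3a16, which were covered to 100% by all 12 libraries analysed at both sonications. The 3 Csmd genes, large complement-control membrane proteins, had 1 member in each class: Csmd1 (chr8:15892537-17535586) in N18 only, Csmd2 (chr4:127665101-128244903) in both and Csmd3 (chr15:47412183-48623609) in 3A6 only. No gene of the lists of nuclear lamina and envelope (19 genes) or of fibroblast matrix (25 genes), which includes collagens and fibronectin, lay in any of the 3 classes, which together held 13.7% of all genes. Both counts of 0 lie below that share, which is raised by the olfactory and vomeronasal receptors, 47.6% of the genes in 3A6 only. The lists are short, and the difference was not tested.

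**Figure D5:**
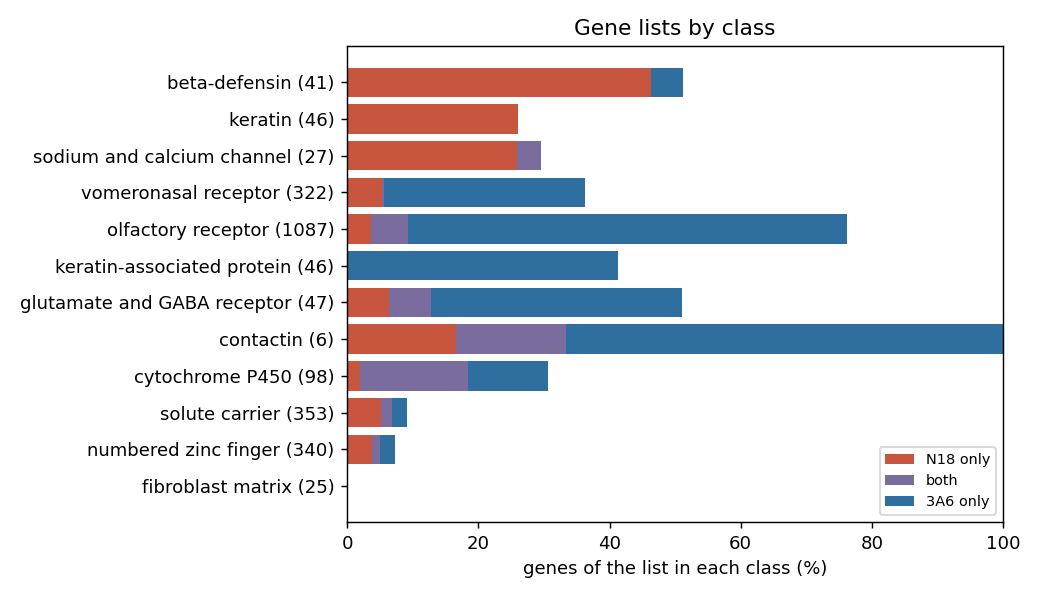
Share of the protein-coding genes of 12 lists (%) that lie in N18 only, both or 3A6 only domains of WT cells at 30 cycles, with the number of genes in brackets. Olfactory receptors reach 67.0% in 3A6 only, keratins have 12 of 46 genes in N18 only and none in 3A6 only, and keratin-associated genes have 19 of 46 in 3A6 only and none in N18 only.

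The study's own qPCR sites were placed in the classes by their mm9 positions, 3 of them intergenic and chosen as LAD and 3 inside genes and chosen as nonLAD. Of the LAD sites 1 lay in both, 1 in 3A6 only and 1 in neither. The shared site and the 3A6 only site are shown as read from the plus strand of the mm9 genome, because they are the positions at which the antibodies could be compared by another assay.
Shared site (chr4:121406388-121406519): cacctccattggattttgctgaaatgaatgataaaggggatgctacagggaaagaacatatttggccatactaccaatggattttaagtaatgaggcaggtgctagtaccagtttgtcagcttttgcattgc
3A6 only site (chr7:55155343-55155441): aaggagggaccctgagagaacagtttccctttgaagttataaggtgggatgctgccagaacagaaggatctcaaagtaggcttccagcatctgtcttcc
The shared site was inside N18 domains and 3A6 domains of KO and WT cells at 30 cycles and of neither genotype at 12 cycles. It was inside LAP2alpha domains of WT cells at 30 cycles and outside lamin B1 domains at 30 and at 12 cycles. The 3A6 only site was inside lamin B1 and LAP2alpha domains of WT cells at 30 cycles and, in KO cells at 30 cycles, inside 3A6 but not N18 domains. In KO cells at 12 cycles it was inside the domains of N18 and of 3A6. The 3 nonLAD sites, in Chst8, Odz4 and Ccnd1, were outside the domains of both antibodies and inside LAP2alpha domains in WT cells at 30 cycles. They and the 3A6 only site lie on chromosome 7, of which LAP2alpha domains held 62.9% at 30 cycles. At 12 cycles the sites in Chst8 and Odz4 were inside LAP2alpha domains of WT cells and the site in Ccnd1 was outside.

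Islands inside the domains followed the domain classes in part. Domains and islands of a library were called from the same reads, so this is no separate support for the classes. Islands covered at least 1% in both libraries on only 10 chromosomes. N18 islands filled 29.0% of N18 only, 22.2% of both and 7.54% of 3A6 only, and 3A6 islands filled 12.7%, 21.3% and 15.9% of the same classes. In neither, N18 islands filled 7.88% and 3A6 islands 5.34%. The read density of islands differed little, at 40.6 reads per kb for N18 islands in N18 only and 37.6 reads per kb for 3A6 islands in 3A6 only. Of the N18 islands 3134 (47.3%) touched a 3A6 island, and of the 3A6 islands 3200 (46.7%) touched an N18 island.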

How the data were processed

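Chromatin immunoprecipitation and sequencing had been done for 24 samples, of which 12 libraries are used. The remaining inputs and histone marks were not analysed here. Per the submitters' notes and the study's methods, cutadapt, Bowtie2 2.1.0 (genome mm9) and Picard were used, PCR duplicates were discarded, and each library was thinned to the read number of its input. The deposited domain lists carry an EDD score per domain (bins of 11 kb), and the deposited island lists of SICER 1.1 carry read counts per island. Those reads are counts inside islands and not the library depth, and library totals were not used here.

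Domains were placed on a grid of 1 kb, split into classes, and compared with the annotation (gencode vM1, 22350 records, 22208 symbols) and with other libraries' domains, using Python 3.11.15 and NumPy 2.4.6. Assembly gaps were left out (2556.1 Mb remained). The overlap code was tested on simulated regions. No test was run, since each group had 1 library. Genes were named by rule: the longest stretches, the longest genes, up to 4 members of each list per class, and the qPCR sites. Members, lists and rule were chosen with earlier results of these data known. Alternatives are listed at the end. No column of another series was used.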

Additional observations from a re-analysis of the deposited data

Results flagged for a closer look

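The difference between the antibodies in domain length had opposite signs at the 2 sonications in WT cells. N18 minus 3A6 was -343.431 Mb at 30 cycles (238.557 Mb for N18 and 581.988 Mb for 3A6) and 5.17 Mb at 12 cycles (403.755 Mb for N18 and 398.585 Mb for 3A6). In KO cells it was -27.676 Mb at 30 cycles and 37.752 Mb at 12 cycles. With 1 library per group the difference between sonications was not tested, and the cycle number went together with the flow cell.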

How the results depend on the processing

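Over 9 results, 70 alternatives were run and 0 reversed a direction. Shares of domain or island length are never negative, so only the differences between classes could reverse. The length difference was 0 kb with islands for the classes, so it had no direction there. A value counts as moved when it left a 95% interval that takes domains, islands, stretches or genes as independent units, or a factor of 1.5 for lengths, and 29 did. The cause was not tested unless named. With the domains above their library's median score, 28.0% of N18 and 10.4% of 3A6 length was shared, the lamin B1 difference was -42.47 points, the gene density difference 1.78 genes per Mb and the length difference -907.5 kb. With 3A6 trimmed by falling score to the full N18 length, the shared part was 9.34% of each. The lamin B1 difference was then -39.41 points, the LAP2alpha difference 47.56 points and the length difference -2348.5 kb. There, N18 only takes in N18 length that lies inside the dropped 3A6 domains. With domains of at least 500 kb the gene density difference was 2.58. With islands for the classes the differences were -38.68 points for lamin B1, 8.47 points for LAP2alpha, 5.22 genes per Mb and 0 kb. With 12-cycle references they were -19.60 points for lamin B1 and 72.36 for LAP2alpha, and with islands of the references -8.40 and 13.17. On chromosomes with at least 1% of island coverage, the LAP2alpha difference was 15.48 points and the gene density difference 4.58, and without sensory receptor genes the gene density difference was 4.78. By count of domains, 25.3% of 3A6 domains lay at least 50% inside N18 domains and 36.4% touched 1. Of island length, 33.8% was shared for N18 islands above the median read count, and 38.1% on covered chromosomes. For 3A6 it was 44.9% on autosomes. By count, 47.3% of N18 and 46.7% of 3A6 islands touched. The G+C difference was 5.92 to 7.15 points in its alternatives, against 7.10; its interval was too wide to call a value moved. No paired analysis was possible because each group held 1 library with 1 replicate number. What depth limits cannot be given, since library totals were not used here.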

Other observations

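Serpins, a family of protease inhibitors, were also split by cluster, with 8 of 60 genes in N18 only and 11 in 3A6 only. The N18 only members named by rule, Serpina10, Serpina1a, Serpina1e and Serpina6 on chromosome 12, were covered to 100% by LAP2alpha and to 0% by lamin B1 at 30 cycles. The 3A6 only members Serpini1 and Serpini2 on chromosome 3 were covered to 100% by lamin B1 and to 0% by LAP2alpha. At 30 cycles LAP2alpha domains held 0% of chromosome 3, 77.2% of chromosome 12 and 67.0% of chromosome 1. The part of this chromosome pattern in the serpin values was not tested. Serpinb3b and Serpinb12, on chromosome 1 with 8 of the 11, were covered to 100% by lamin B1 and also to 100% by LAP2alpha. Solute carriers had 18 of 353 genes in N18 only (5.10%), 6 in both (1.70%) and 8 in 3A6 only (2.27%). Against 4.32%, 1.55% and 7.83% of all genes, N18 only and both were near the share of all genes. The share of all genes in 3A6 only is raised by the sensory receptors. Slc6a11, a GABA transporter, was covered to 100% by N18 and to 0% by 3A6, lamin B1 and LAP2alpha at 30 cycles, and to 100% by N18, 3A6 and LAP2alpha at 12 cycles.

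Genes of at least 500 kb numbered 8 of 960 in N18 only, 22 of 345 in both and 57 of 1738 in 3A6 only, against 200 of 22208 in all. Genes under 2 kb numbered 137 (14.3%) in N18 only, 95 (27.5%) in both and 885 (50.9%) in 3A6 only, against 3241 (14.6%) of all genes. Olfactory and vomeronasal receptors made up 827 of the 1738 genes in 3A6 only. Without these receptors, a choice made after seeing the data, the median gene length was 16.7 kb in 3A6 only. It was 14.5 kb in N18 only and 31.9 kb in both, against 17.3 kb over all other genes.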
